A study of Mus musculus with 78 samples.

Results

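The 10 genes described here belong to the burst of transcription that the mouse embryo makes at the 2-cell stage, and they were followed into the 2 stages after it, in single blastomeres of 4-cell and 8-cell embryos. They are Zscan4c, Zscan4d, Zscan4f, Tcstv1, Tcstv3, Zfp352, Tdpoz1, Tdpoz3, Tdpoz4 and Usp17lc. They were found by their Entrez gene identifier, and 10 of 10 were listed in both gene tables, among 15218 genes at the 4-cell stage and 15342 at the 8-cell stage. The embryos came from a cross of 2 mouse strains, one with CAG-Brainbow2.1 at the Gt(ROSA)26Sor locus and one with the CAG-cre/Esr1* transgene, so that each blastomere carried the Brainbow cassette and a Cre that tamoxifen switches on. The CAG promoter that drives this Cre is active in nearly all cells. All embryos were given 4-Hydroxytamoxifen for a short time as 2-cell embryos and were then grown in KSOM medium, so neither stage has untreated blastomeres beside it. Single blastomeres were sequenced with Smart-seq2, which copies full-length transcripts, and the gene tables hold 24 blastomeres of the 4-cell and 26 of the 8-cell stage. The labels list 36 samples of the 4-cell and 31 of the 8-cell stage, of which 24 and 26 have a lineage. The study limited its analyses to blastomeres whose lineage could be traced from reads of the marker genes. Shares given here are shares of the 24 and 26 blastomeres.

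The columns cannot be tied to individual samples of the labels by their names, and 5 columns of the 8-cell table are named NA. Blastomeres are therefore called by their column (S20), the columns named NA carry a running number (NA-4), and no embryo or lineage was assigned to any of them, since the names of the columns give neither. Each stage counts as 1 sample. Values are given per blastomere, or as the lowest, the median and the highest, and the stages were compared without a test. Intervals around shares of blastomeres are exact (Clopper-Pearson) 95% intervals and cover counting error only, since blastomeres of an embryo are not independent. The unit is FPKM, the fragments counted on a gene, scaled by its exon length and by the fragments of the library. Its low values showed the number of fragments behind each one, and the 68 member values between 0 and 20 fragments all lay within 0.1 of a whole number. The FPKM denominators ran from 6.86 M to 16.9 M fragments at the 4-cell stage and from 2.33 M to 21.7 M at the 8-cell stage (M, mega). The lowest 8-cell value belonged to S57, a library that stands apart and in which no member had a fragment.

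The first cleavage of the mouse zygote is followed by a short wave of transcription that switches on MERVL endogenous retroviruses together with a set of multicopy genes, and that is normally shut down before the next cleavages. Zscan4 genes encode a protein with a SCAN domain and zinc fingers that is known for its part in telomere maintenance in embryonic stem cells. The same genes come on again in the rare embryonic stem cells that pass through a 2-cell-like state. Tcstv1 and Tcstv3 are named for their variable transcription at the 2-cell stage, Zfp352 encodes a zinc finger protein, Tdpoz genes encode proteins with a TRAF-like and a POZ domain, and Usp17lc encodes a deubiquitinase.

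In GRCm38.p6, which is the build mm10 that the files use, the copies of a family lie near each other. Zscan4c lies at chr7:11005745-11010547 on the plus strand, Zscan4d at chr7:11161643-11166148 on the minus strand and Zscan4f at chr7:11397915-11402318 on the plus strand. Tcstv1 lies at chr13:119893387-119894785 on the minus strand and Tcstv3 at chr13:120316862-120318261 on the plus strand. Tdpoz1 lies at chr3:93669333-93676283 on the minus strand, and Tdpoz4 at chr3:93796398-93797510 and Tdpoz3 at chr3:93826020-93827117 on the plus strand. Zfp352 lies at chr4:90218820-90225687 and Usp17lc at chr7:103416696-103419174, both on the plus strand. RefSeq gives each of the 10 genes 1 curated transcript, and all sequence printed as coding lies in exons.

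The Zscan4 genes are near-identical copies, the Tcstv and Tdpoz genes are less alike, and only reads that align to 1 place were counted. Zscan4c and Zscan4f differ at 6 of 1521 coding bases (99.6% identity), and Zscan4d differs from each of them at 35. Tcstv1 and Tcstv3 differ at 27 of 510 aligned coding bases, and Tdpoz1 and Tdpoz4 at 231 of 1093. The stretches printed here, taken from the RefSeq genome GRCm38.p6, are those of 60 coding bases with the most differences within a set, and for Zscan4 only those with a difference between Zscan4c and Zscan4f were considered. They show bases that tell the printed members of a set apart, and other copies in the genome were not compared there. The bases are those of the reference genome. The sequences of the strains that were crossed were not compared with it. Capitals mark the positions at which the sequences of a set are not all the same. The Zscan4 stretches lie at chr7:11009507-11009566 on the plus strand, at chr7:11162351-11162410 on the minus strand and at chr7:11401700-11401759 on the plus strand.
Zscan4c: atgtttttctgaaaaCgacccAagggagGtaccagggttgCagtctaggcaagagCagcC
Zscan4d: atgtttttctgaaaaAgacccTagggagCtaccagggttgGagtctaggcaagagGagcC
Zscan4f: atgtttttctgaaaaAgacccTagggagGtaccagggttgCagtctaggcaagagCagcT
The Tcstv stretches lie at chr13:119893642-119893701 on the minus strand and at chr13:120317960-120318019 on the plus strand, and 9 of their bases differ.
Tcstv1: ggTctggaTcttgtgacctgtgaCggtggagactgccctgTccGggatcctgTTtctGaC
Tcstv3: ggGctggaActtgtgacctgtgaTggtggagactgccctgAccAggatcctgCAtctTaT
The Tdpoz stretches lie at chr3:93671082-93671141 on the minus strand and at chr3:93796732-93796791 on the plus strand, and 22 of their bases differ.
Tdpoz1: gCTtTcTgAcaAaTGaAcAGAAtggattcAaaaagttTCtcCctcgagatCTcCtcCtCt
Tdpoz4: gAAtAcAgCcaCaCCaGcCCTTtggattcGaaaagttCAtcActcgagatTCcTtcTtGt

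How much of each gene a single read of 100 bases can place was measured by looking up every 100-base window of its exons in the whole genome. For Zscan4f, 6.9% of the windows were found at 1 place, and for Zscan4c 28.8%, against 72.5% for Zscan4d. The share was 53.3% for Tdpoz3 and 53.7% for Usp17lc, 77.9% for Tdpoz1 and 88.4% for Tdpoz4, and 92.9% and 92.5% for Tcstv1 and Tcstv3. Zfp352 reached 99.3%. Levels of Zscan4f and Zscan4c are thus undercounted more than those of the others and are not ranked against them here, and each is compared with itself between blastomeres.

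**Figure D1:**
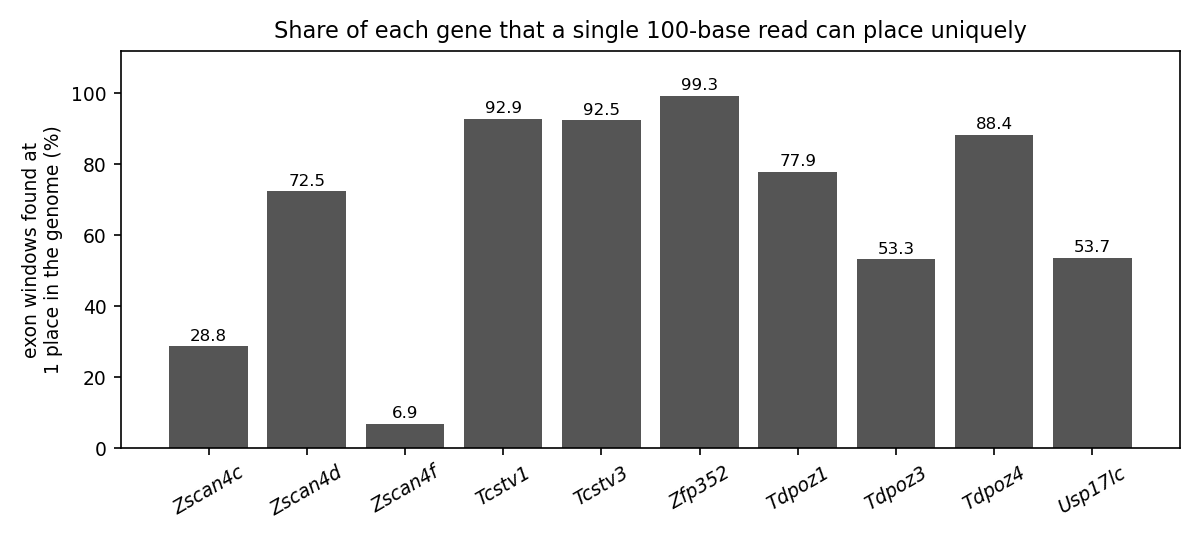
Percent of the 100-base windows of each gene's exons that occur at 1 place in the GRCm38.p6 genome, 1 bar per gene. Zscan4f has the lowest share, 6.9%, and Zfp352 the highest, 99.3%.

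By counts above 0, Tdpoz1 and Tdpoz4 were the widespread members at both stages, and the other 8 were sporadic. Above an FPKM of 1, Tdpoz1 was in 12 of 26 8-cell blastomeres, so that it stood less clearly apart there. Tdpoz4 was above 0 in 24 of 24 4-cell and 22 of 26 8-cell blastomeres, and Tdpoz1 in 24 and 19. The other 8 were above an FPKM of 1 in at most 7 blastomeres of a stage, and elsewhere mostly at 0. Tcstv3 differed in part, since 13 of 24 4-cell blastomeres held 1 to 3 fragments of it. Of the 7 members outside the Tdpoz family, at least 1 was above an FPKM of 1 in 14 of 24 4-cell blastomeres (58.3%, interval 36.6% to 77.9%). At the 8-cell stage this held for 10 of 26 blastomeres (38.5%, interval 20.2% to 59.4%). None of S53 to S58, the 8-cell blastomeres with the fewest genes above 1, was among these 10. The difference between the stages was not tested. The median number of members above 0 was 4 per 4-cell blastomere, from 2 to 8, and 3 per 8-cell blastomere, from 0 to 7. Above an FPKM of 1 the medians were 2.5 and 2.

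**Figure D2:**
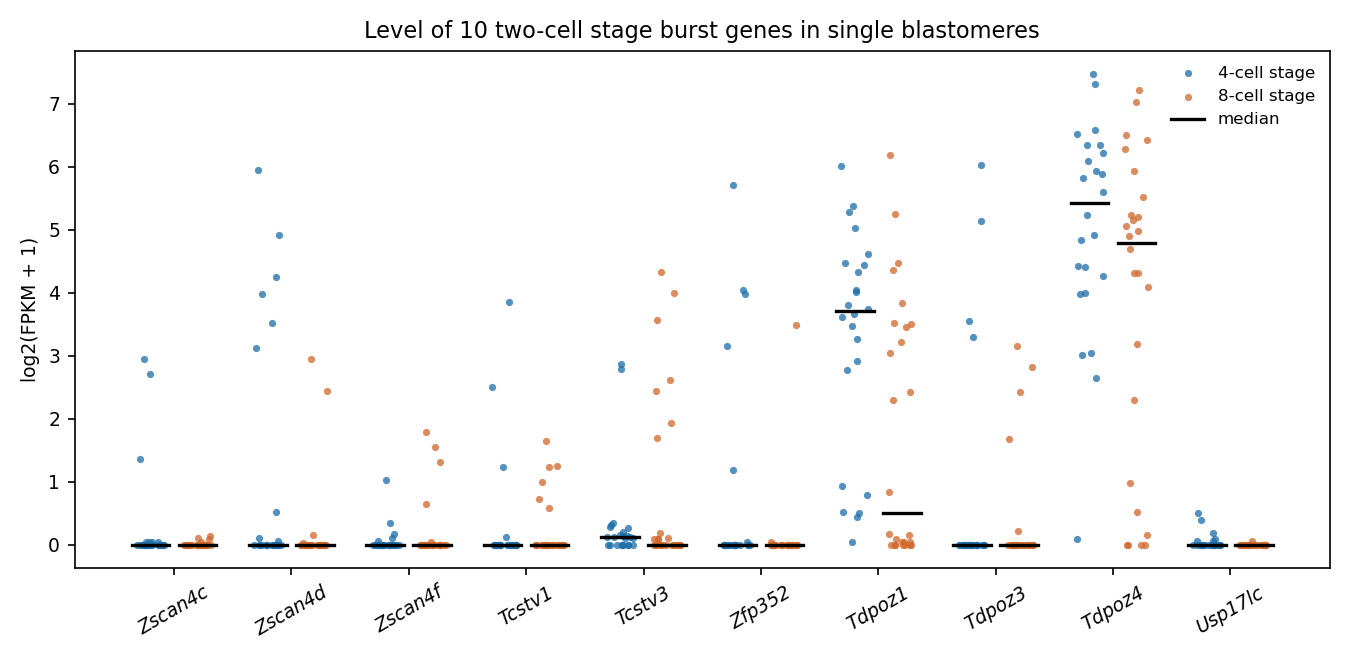
Level of each member, as log2(FPKM + 1), in the 24 blastomeres of the 4-cell stage and the 26 of the 8-cell stage, with 1 point per blastomere and a black line at the median. Only Tdpoz1 and Tdpoz4 have medians well above 0 at the 4-cell stage, and the points of every gene overlap between the stages.

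Zscan4d, of which most windows can be placed, ran from 0 to 60.7 FPKM in 4-cell blastomeres with a median of 0, and 9 of 24 blastomeres (37.5%, interval 18.8% to 59.4%) had at least 1 fragment. It was above 1 in 6 of them, S21 at 60.7, S23 at 29.2, S2 at 18.1, S16 at 14.7, S13 at 10.5 and S6 at 7.75 FPKM. These 6 stood above the highest 8-cell blastomere. Of the 26 8-cell blastomeres 4 had a fragment, and only NA-4 at 6.74 and S51 at 4.41 FPKM were above 1. The mean FPKM was 5.90 at the 4-cell stage and 0.434 at the 8-cell stage, a ratio of 13.6. That ratio was 8.09 without S21, 21.4 without S51 and 32.4 without NA-4, so its size rested on single blastomeres while its direction did not.

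Zscan4c also had the higher mean at the 4-cell stage. It was above 1 in 3 4-cell blastomeres, S22 at 6.69, S23 at 5.56 and S3 at 1.58 FPKM, and 4 more had a single fragment each. In all, 11 fragments were counted over the 26 8-cell blastomeres, at most 4 in 1 of them, and the highest level was 0.0991 FPKM in S48. The ratio of means was 56.8, and 30.9 without S22, 35.7 without S23 and 87.1 without S48. S22 and S23 held 119 and 87 of the 257 4-cell fragments, and the ratio without both was not computed. They were also the 2 shallowest 4-cell libraries, with denominators of 7.81 M and 6.86 M. With the denominator, Zscan4c had a Pearson's r of -0.69 and a rank correlation of -0.11 at the 4-cell stage. The part of depth was not tested.

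Zscan4f went the other way. The highest 4-cell blastomere was S7 at 1.03 FPKM with 22 fragments, and 34 fragments were counted in all. Among 8-cell blastomeres S52 reached 2.47, S60 1.92 and S59 1.49 FPKM, and 207 fragments were counted in all. The 8-cell mean of 0.249 FPKM was 3.86 times the 4-cell mean of 0.0645 FPKM, 11.1 times without S7 and 2.48 times without S52. As many blastomeres had a fragment at both stages, 5 of 24 and 5 of 26, so that the means differed through the level of a few.

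Among Zscan4c, Zscan4d and Zscan4f, the counted fragments lay mostly on 1 copy per blastomere, and which copy it was differed. Zscan4a, which is no member, is left out of these shares, with 365 fragments in 6 4-cell and 394 in 2 8-cell blastomeres. Of the 10 4-cell blastomeres with 10 or more fragments of these 3 copies, 9 had over 90% of them on 1 copy, which was Zscan4d in 7 of the 10, Zscan4c in 2 and Zscan4f in 1. S21 had 1881 fragments on Zscan4d and none on the others, and S22 had 119 on Zscan4c and none on the others. S23 was the exception, with 399 fragments on Zscan4d, 87 on Zscan4c and 1 on Zscan4f. Of the 6 such 8-cell blastomeres 5 had over 90% on 1 copy, Zscan4d in 2 of the 6 and Zscan4f in 4. NA-2 held 17 of its 20 fragments on Zscan4f and 3 on Zscan4c. Zscan4c and Zscan4f were both detected in 3 of the 6 8-cell blastomeres with either, S48, S59 and NA-2, with a rank correlation of 0.56 over 26 blastomeres. These are shares of counted fragments and no ranking of the copies. They rest on alignment to the reference genome, and the part of strain differences in them was not tested. By the number of unique windows, 1159 for Zscan4d and 100 for Zscan4f, single reads from both in equal number of transcripts would fall on Zscan4d in 92.1%, so a high share on Zscan4d does not show that Zscan4f was absent. The libraries were read in pairs, either mate of which can place a fragment, and the share for pairs was not computed.

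**Figure D3:**
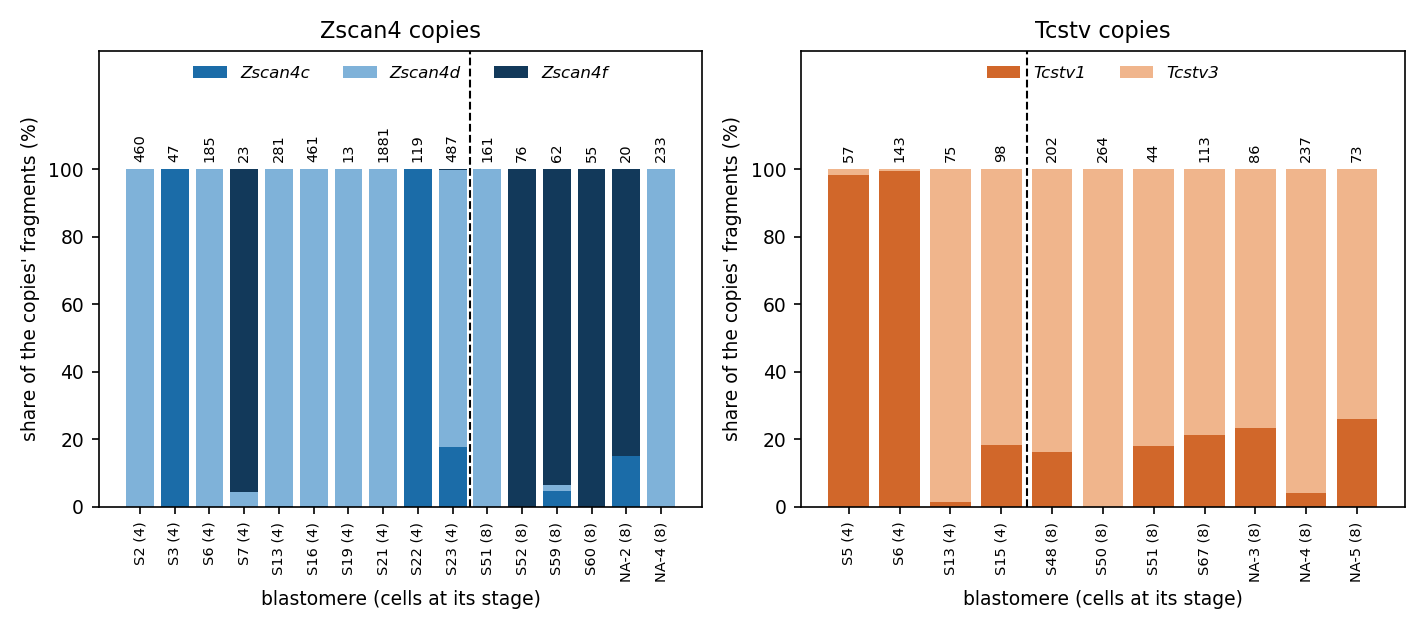
Share of counted fragments, in percent, that each copy holds among Zscan4c, Zscan4d and Zscan4f (left) and among Tcstv1 and Tcstv3 (right), in every blastomere with 10 or more fragments of the set. Zscan4a is not included. The number of cells of the stage stands in brackets after each blastomere, the dashed line divides the stages, and the number of fragments stands above each bar. Most bars of Zscan4 have a single colour, and Tcstv3 holds the larger part of all 7 Tcstv bars of the 8-cell stage.

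Where they align, the promoters of these copies are nearly as alike as their coding bases. In the windows from 250 bases before to 50 after the start of each gene, given by RefSeq, Zscan4c and Zscan4f differ at 2 of 277 aligned bases, Zscan4c and Zscan4d at 8 of 289, and Zscan4d and Zscan4f at 7 of 266. Gaps, which these counts leave out, took up 46, 22 and 68 bases of the 3 alignments, in the same order. The letters TATAAA lie 54 bases before the start given by RefSeq in Zscan4c, 65 in Zscan4d and 31 in Zscan4f. The windows are thus shifted against each other, and the gaps are not read as inserted or lost bases. The stretches printed here are 100 bases around the letters TATAAA, which are in capitals, and are shown because the copies differ little there. They lie at chr7:11005621-11005720 on the plus strand, at chr7:11166184-11166283 on the minus strand and at chr7:11397814-11397913 on the plus strand.
Zscan4c: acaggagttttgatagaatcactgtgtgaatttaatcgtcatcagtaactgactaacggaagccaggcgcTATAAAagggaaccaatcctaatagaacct
Zscan4d: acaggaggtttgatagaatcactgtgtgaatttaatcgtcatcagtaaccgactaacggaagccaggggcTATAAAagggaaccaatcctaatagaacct
Zscan4f: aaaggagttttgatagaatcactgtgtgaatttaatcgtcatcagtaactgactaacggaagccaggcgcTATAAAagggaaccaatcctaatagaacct
The letters TATAAA were searched on both strands. They were found in 13.6% of the 32851 RefSeq promoters of that length, and in those of Zscan4c, Zscan4d, Zscan4f and Usp17lc among the 7 members with a promoter in the table. In these windows of Zfp352, Tdpoz1 and Tdpoz4 the letters are not found.

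Zfp352 was held by very few blastomeres. It ran from 0 to 51.2 FPKM in 4-cell blastomeres with a median of 0, and 18 of 24 blastomeres had no fragment. S20 at 51.2 held 56.4% of the summed FPKM, followed by S4 at 15.6, S19 at 14.9, S21 at 7.87 and S23 at 1.29 FPKM. Of the 8-cell blastomeres S50 had 10.3 FPKM with 364 fragments, S58 had 1 fragment, and the other 24 had none. The ratio of the 4-cell to the 8-cell mean was 9.53. It was 4.34 without S20, and 2690 without S50, since a single fragment is then left at the 8-cell stage.

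The Tcstv pair was led by either gene at the 4-cell stage and by Tcstv3 at the 8-cell stage. In 4-cell blastomeres Tcstv1 was above 1 in S6 at 13.5, S5 at 4.70 and S15 at 1.34 FPKM. Tcstv3 was above 1 in S13 at 6.28 and S15 at 5.94 FPKM, and 13 more blastomeres held 1 to 3 fragments of it. S6 had 142 fragments of Tcstv1 and 1 of Tcstv3, while S13 had 1 of Tcstv1 and 74 of Tcstv3. The highest 8-cell levels of Tcstv3 were 19.2 FPKM in S50, 14.9 in NA-4 and 10.9 in S48, and 7 of 26 blastomeres were above 1. Tcstv1 had fragments in 6 blastomeres there, from 0.498 to 2.13 FPKM.

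Tcstv3 was counted in 6 of the 6 8-cell blastomeres with Tcstv1 and stood above it in each. In the 7 blastomeres with 10 or more Tcstv fragments, Tcstv3 held between 74.0% and 100% of them, with a median of 81.8%. S50 had 264 fragments of Tcstv3 and none of Tcstv1. Over the 26 blastomeres the rank correlation of the pair was 0.71, and at the 4-cell stage it was 0.39. The value of 0.71 was the highest at either stage among pairs of members with fragments in at least 3 blastomeres each. The exon windows of the pair are read uniquely to a nearly equal extent, 92.9% and 92.5%. The ratio of the 4-cell to the 8-cell mean was 3.04 for Tcstv1, but 0.988 without S6. The 8-cell mean of Tcstv3 was 3.95 times the 4-cell mean, 6.86 times without S13 and 6.57 times without S15.

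Tdpoz4 was the most abundant member at both stages. In 4-cell blastomeres it ran from 0.0674 FPKM in S20, where 1 fragment was counted, to 176 FPKM in S13, with a median of 42.1. In 8-cell blastomeres it ran from 0 to 148 FPKM in S66, with a median of 26.8, and 19 of 26 blastomeres were above 1 against 23 of 24 at the 4-cell stage. Its ratio of means was 1.46, between 1.31 and 1.67 with any 1 blastomere left out. Its range overlapped between the stages, and 4 8-cell blastomeres had no fragment of it.

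Tdpoz1 had a median of 12.1 FPKM at the 4-cell stage and of 0.453 at the 8-cell stage. It was above 1 in 18 of 24 blastomeres (75.0%, interval 53.3% to 90.2%) and in 12 of 26 (46.2%, interval 26.6% to 66.6%). The difference between the stages was not tested. Its highest levels were 63.4 FPKM in S24 at the 4-cell and 71.7 FPKM in S53 at the 8-cell stage. The ratio of means was 1.84, and between 1.59 and 2.63 with any 1 blastomere left out. The 6 4-cell blastomeres at or below 1, which were S15, S16, S17, S18, S19 and S20, bear neighbouring names. Whether blastomeres with neighbouring names share an embryo was not tested.

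Tdpoz1 and Tdpoz4 were each counted without the other in some 8-cell blastomeres. Tdpoz4 was above 1 in 23 of 24 4-cell blastomeres, among them the 18 with Tdpoz1 above 1, an overlap that such a high share nearly fixes, and the rank correlation over 24 blastomeres was 0.32. Of the 8-cell blastomeres 9 had both above 1, 10 had only Tdpoz4, 3 had only Tdpoz1 and 4 had neither, and the rank correlation was -0.01. S53 had 3062 fragments of Tdpoz1 and none of Tdpoz4. S56 had 2693 fragments of Tdpoz4 and none of Tdpoz1. Both belong to S53 to S58, the 6 8-cell blastomeres with the fewest genes above 1, 3548 to 5391 beside a median of 6773, and none of the 6 had a member outside the Tdpoz family above 1. In 13 of the 22 8-cell blastomeres with 10 or more fragments of the pair, over 90% lay on 1 of them, against 6 of 24 at the 4-cell stage. Without blastomeres under 5500 genes above 1, these counts were 9 of 18 and 4 of 20, and 9 8-cell blastomeres had both above 1, 8 only Tdpoz4, 1 only Tdpoz1 and 2 neither. The part of library quality in these counts was not tested.

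**Figure D4:**
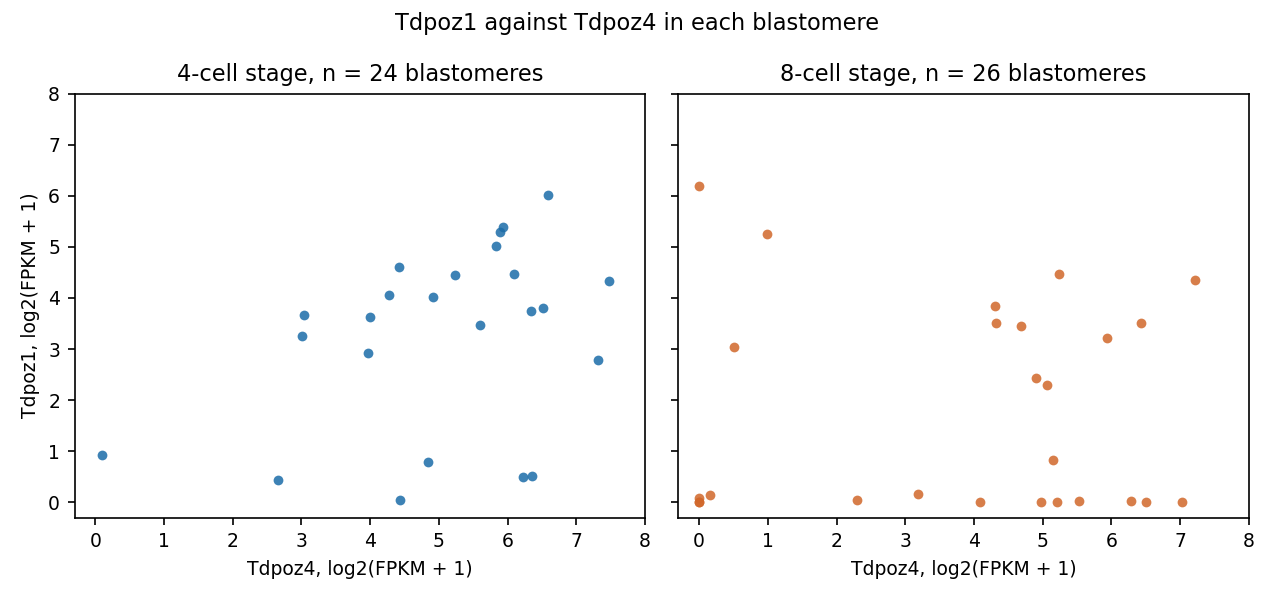
Tdpoz1 against Tdpoz4, both as log2(FPKM + 1), with 1 point per blastomere, in 24 blastomeres of the 4-cell and 26 of the 8-cell stage. At the 8-cell stage points lie along both axes, with S53 at the top of one and S56 at the far end of the other.

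Tdpoz3 was high or at 0, with a single blastomere between. In 4-cell blastomeres S14 had 64.0, S13 34.1, S7 10.8 and S3 8.83 FPKM, and the other 20 blastomeres had no fragment. Among 8-cell blastomeres S49 had 7.91, S51 6.06, S48 4.36 and S50 2.20 FPKM, S64 had 3 fragments and the other 21 had none. The 4 highest bear neighbouring names here too. The ratio of means was 6.17, and 2.94 without S14 and 9.60 without S49.

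Usp17lc was close to the limit of detection. Of the 4-cell blastomeres 6 of 24 had fragments, 23 in all, with S1 highest at 0.424 FPKM from 10 fragments. A single fragment, in S55, was counted over the 26 8-cell blastomeres. The rate of fragments was 32.2 times higher at the 4-cell stage, with an exact 95% counting interval of 5.23 to 1326. The ratio of mean FPKM was 28.4, and 17.2 without S1, and without S55 no 8-cell fragment is left. It was the only member that never passed an FPKM of 1.

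Across all genes, a mean FPKM at least 2-fold higher at the 4-cell stage was found for 21.2% of the 13041 genes that were listed in both tables and above 1 in at least 1 blastomere, and a mean at least 2-fold higher at the 8-cell stage for 15.5%. Of the members 9 entered this set, all but Usp17lc. Zscan4c, Zscan4d, Tcstv1, Zfp352 and Tdpoz3 were at least 2-fold higher at the 4-cell stage, 5 of 9, and Zscan4f and Tcstv3 at least 2-fold higher at the 8-cell stage, 2 of 9. Sparse genes pass such a fold more often. Among the 4567 genes above 0 in under 50% of the blastomeres of both stages, 35.5% were at least 2-fold higher at the 4-cell stage and 27.1% at the 8-cell stage, with 5 and 1 of the 6 members in that set. The count of 5 became 4 without S6, and 6 without S53 or without S54, when Tdpoz1 joined. The median log2 ratio of the 9 members tested was 1.602, beside 0.07 over all genes tested, and with Usp17lc it was 2.11. In the mean of log2(FPKM + 1), which weighs a single high blastomere less, the median difference of the 10 members between the stages was 0.32.

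At least 1 of the 8 members other than Tdpoz1 and Tdpoz4 was above 1 in 15 4-cell blastomeres, of which 8 had 1 of them, 5 had 2 and 2 had 3. The 7 with more than 1 were S3 with Zscan4c and Tdpoz3, S6 with Zscan4d and Tcstv1, S7 with Zscan4f and Tdpoz3, S13 with Zscan4d, Tcstv3 and Tdpoz3, S15 with both Tcstv genes, S21 with Zscan4d and Zfp352, and S23 with Zscan4c, Zscan4d and Zfp352. Of the 11 8-cell blastomeres with any above 1, 5 had 1 of them, 3 had 2 and 3 had 3. Tcstv3 was above 1 in 7 of these 11, among them the 6 with more than 1. It stood with Tcstv1 in S67 and NA-3, with Tcstv1 and Tdpoz3 in S48, with Zscan4d in NA-4, with Zscan4d and Tdpoz3 in S51, and with Zfp352 and Tdpoz3 in S50. The 3 8-cell blastomeres with Zscan4f above 1 had none of the other 7 above 1.

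**Figure D5:**
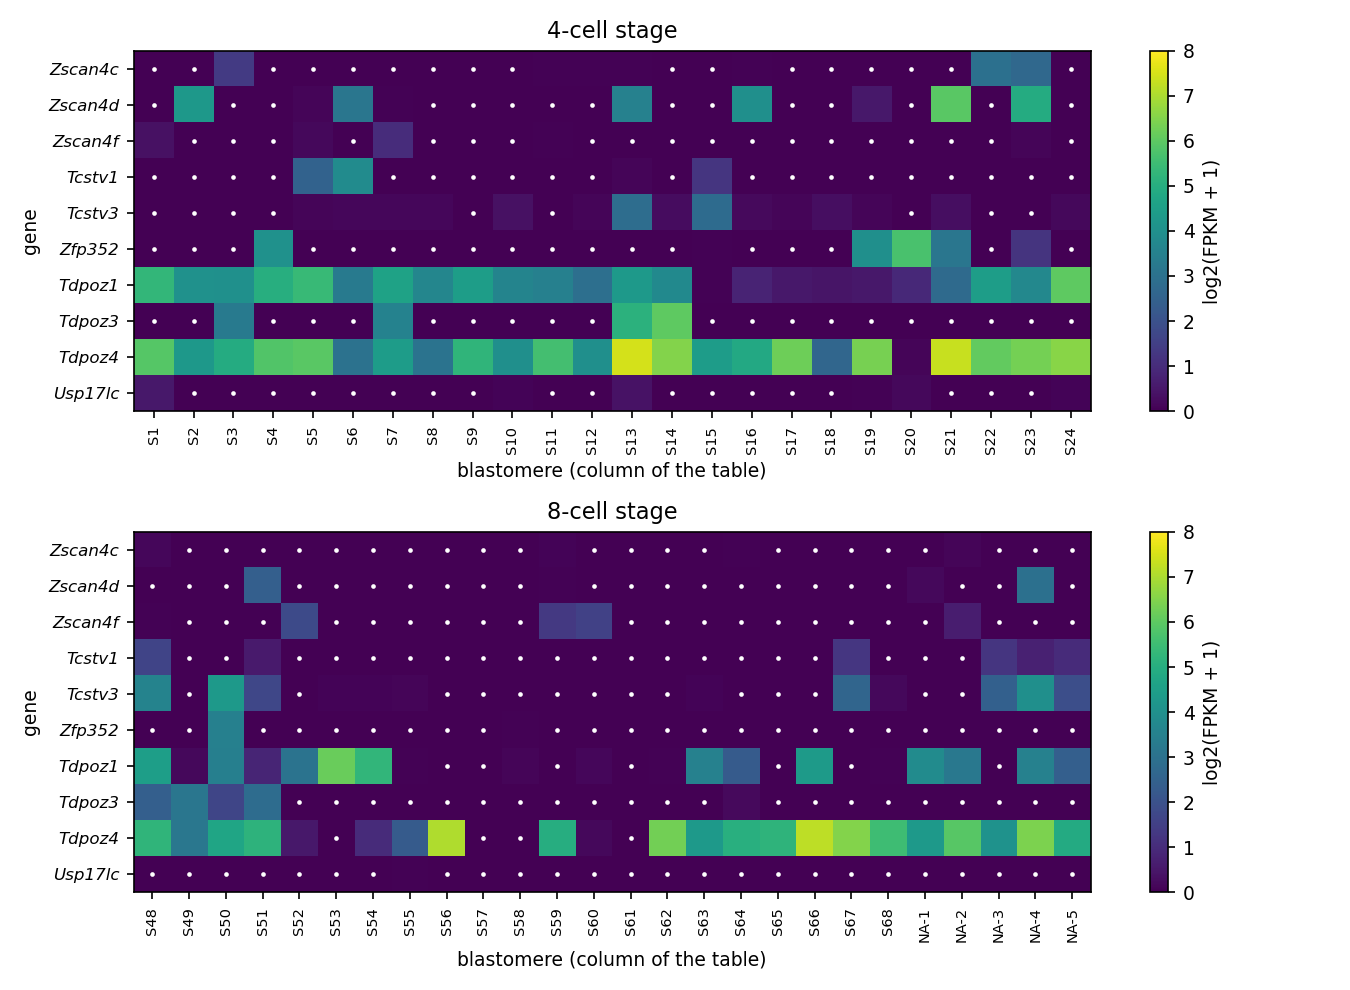
Level of each member, as log2(FPKM + 1), in every blastomere, with the 4-cell stage above and the 8-cell stage below. White dots mark values of 0, and columns follow the tables. In 7 of 24 columns of the 4-cell stage and 6 of 26 of the 8-cell stage, more than 1 member outside Tdpoz1 and Tdpoz4 is above an FPKM of 1.

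Over all pairs of members with fragments in at least 3 blastomeres, the rank correlation had a median of 0.08 for the 4-cell blastomeres, from -0.31 to 0.41 over 45 pairs. At the 8-cell stage the median was 0.12, from -0.23 to 0.71 over 28 pairs. These values are descriptions over 24 and 26 blastomeres, many of them at 0 and some from the same embryo. The 7 pairs within a family had a median of 0.25 among 4-cell blastomeres and of 0.07 among those of the 8-cell stage.

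The summed FPKM of the 10 members ran from 5.89 to 247 in 4-cell blastomeres, with a median of 57.6, and from 0 to 167 in 8-cell blastomeres, with a median of 36.7. Tdpoz1 and Tdpoz4 made up a median of 84.5% and 96.2% of it. S57 and S61 were the 8-cell blastomeres without a fragment of any member. S57 was shallow, but S61 had 15.7 M fragments, at which 3 fragments would give at most 0.218 FPKM for any member. The number of members above 1 had a rank correlation of 0.76 with the number of genes above 1 in the 26 8-cell blastomeres and of 0.23 in the 24 4-cell blastomeres. The part of library quality in these counts was not tested. With the FPKM denominator the summed level had rank correlations of 0.15 and 0.39.

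MERVL retroviruses are the repeats that share the burst. The unit of the repeat tables is not given, so that only the number of MERVL-int copies above 0 was used, and the columns were joined to the gene tables by their names, which assumes that a name means the same blastomere in both. In 4-cell blastomeres 333 to 1109 copies were above 0 per blastomere, with a median of 789. S18 with 1109 and S20 with 1070 had the most copies and the fewest genes above 1, 3009 and 3699. In S20 Zfp352 was at its highest and Tdpoz4 at its lowest, while S18 had no fragment of Zfp352 and 5.29 FPKM of Tdpoz4. Over the 24 blastomeres the rank correlation with the number of copies was 0.61 for Zfp352 and -0.58 for Tdpoz1, and 0.57 for the sum of the 7 members outside the Tdpoz family. The other members lay between -0.22 for Zscan4f and 0.34 for Zscan4d, with 0.12 for Tdpoz4, and the sum of all 10 had 0.14. The 21 named 8-cell blastomeres had 42 to 819 copies, with a median of 595, and the rank correlations there were 0.01 for that sum, -0.18 for Tdpoz1, 0.38 for Tdpoz4 and 0.19 for the sum of all 10. Zfp352 also had a rank correlation of -0.56 with the number of genes above 1 at the 4-cell stage, and the part of library quality in these relations was not tested.

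Other genes of the 2-cell burst gave a mixed picture. Of a list of 34, 22 were listed at both stages and above 1 in some blastomere, of which 8 were at least 2-fold higher at the 4-cell stage and 4 at the 8-cell stage, with a median ratio of 1.57 beside 1.05 over all genes tested. Over all genes tested those shares were 21.2% and 15.5%, and over the sparse ones 35.5% and 27.1%, so nothing is read from the counts of this list. Usp17lb, a relative of Usp17lc, had a mean of 9.63 FPKM from 6 4-cell blastomeres, up to 104, while 1 fragment was counted over all 8-cell blastomeres. Tdpoz2 went against Tdpoz1, Tdpoz3 and Tdpoz4, with 11.5 FPKM at the 4-cell stage and 26.6 at the 8-cell stage, and was above 1 in 13 of 24 and 21 of 26 blastomeres. Zscan4a had means of 0.461 and 0.386 FPKM. Trim43a, a ubiquitin ligase gene of the burst, was above 0 in every blastomere of both stages, with medians of 935 and 1379 FPKM, and Trim43b likewise with 844 and 693. Zscan5b had means of 252 and 63.5 FPKM, Trim43c of 202 and 183 FPKM, and Sp110 of 92.8 and 124 FPKM. Of the other Zscan4, Usp17l and Tdpoz genes of the list, Zscan4b and Usp17ld had at most 3 fragments at either stage. Usp17la and Usp17le were listed at the 4-cell stage alone, and Zscan4e and Tdpoz5 at neither. How much of these genes a uniquely aligned read can place was not measured. Of the 34 genes, 5 were above 0 in all 4-cell blastomeres and 4 in all 8-cell blastomeres.

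Genes whose pattern was most like the members' sum were ranked by the lower of the rank correlations at the 2 stages, among 8031 genes above 1 in at least 6 blastomeres of each. The first was Serpinc1, with 0.55 at the 4-cell stage and 0.50 at the 8-cell stage, followed by Mrpl9, Nampt, Itgb1bp1 and Lbx2, the last with 0.51 and 0.47. Within the 4-cell stage Gmps led with 0.75, but had -0.06 at the 8-cell stage. Within the 8-cell stage Dpp9 led with 0.72 and had 0.17 at the 4-cell stage. With so many genes ranked over so few blastomeres, these are descriptions of these libraries.

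The stage of the blastomeres was checked on marker lists. Of 9 genes of embryonic transcription tested, 3 were at least 2-fold higher at the 8-cell stage, where 15.5% of all genes were, and none at the 4-cell stage, where 21.2% were. They are named after their values were seen, and are Krt8 at 11.6 and 57.9 FPKM and Krt18 at 2.34 and 59.9 FPKM, keratins of the trophectoderm, and Pou5f1, a pluripotency factor, at 38.3 and 107 FPKM. Nanog, another pluripotency factor of that list, had means of 28.7 and 14.998 FPKM. Of 8 maternal oocyte genes, 3 were at least 2-fold higher at the 4-cell stage and 1 at the 8-cell stage, to be read against the same shares. Of 8 cumulus cell genes, Foxl2, Fshr and Inha were not listed at either stage. Amhr2 was above 0 in all blastomeres, and the summed level of that list ran from 9.03 to 104 FPKM at the 4-cell and from 7.84 to 111 FPKM at the 8-cell stage. Amhr2 carried most of that sum, with medians of 36.6 and 41.5 FPKM beside 40.8 and 42.1 for the sum. Amh, Inhbb and Hsd17b1 were above 0 in 4, 3 and 10 4-cell blastomeres and in 1, 2 and 8 8-cell blastomeres. Cyp19a1 was above 0 in 2 4-cell blastomeres and was not listed at the 8-cell stage. Of 4 sperm genes, Tnp1 and Tnp2 were not listed, and Prm1 and Prm2 were above 0 in 1 or 2 blastomeres per stage.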

How the data were processed

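Per the labels and the methods of the study, the authors aligned the reads to mm10 with STAR 2.5.1b, kept uniquely aligned reads, counted them per gene (Refseq) and per repeat with HTSeq, and the FPKM values of genes were deposited by the authors. The gene lengths they used are not given in the sources used here. The other values, those of repeats, were deposited without a stated unit, and only whether they exceed 0 was used. All 100 columns of the 4 tables lack a sample name. The FPKM denominator was recovered from genes with 1 transcript, using exon lengths of RefSeq GRCm38.p6 (the lowest 0.3 of values, then whole multiples), and was tested on simulated data. In each blastomere at least 90.9% of the values of these genes below 10 fragments came out whole within 0.1. Without molecular identifiers, PCR copies of a molecule cannot be told from separate molecules, and intervals cover counting error only. Fold changes use mean FPKM without a pseudocount. All 10 members were named, and from the lists of burst genes, activators and repressors the 5 genes with the highest mean. The Zscan4, Usp17l and Tdpoz genes of the burst list were named as well. Members and lists were chosen with earlier results of these data known. Alternatives were other thresholds (0.1, 1, 5 FPKM or 10 fragments), averages, scalings and correlations, and leaving out blastomeres. Python 3.11.15, pandas 2.3.3, scipy 1.17.1 and Biopython 1.88 were used. The 5-cell and 6-cell samples were not analysed here.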

Additional observations from a re-analysis of the deposited data

How the results depend on the processing

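The split into widespread and sporadic members rests on few fragments for the low values. The median number of members above the threshold was 4 per 4-cell blastomere at an FPKM above 0, 2.5 above 1 and 2 above 5, and per 8-cell blastomere it was 3 above 0 and 1 above 5. The median log2 ratio of the members between the stages, 2.11, was 0.32 with log2(FPKM + 1) and 0.50 with log2(FPKM + 0.1), and the ratio of Tcstv1 turned to -0.0893 with the latter. At a fold of 4, 4 of 9 members were higher at the 4-cell stage, beside 10.6% of all genes, and 0 at the 8-cell stage, beside 6.39%. With genes above 1 in at least 5 blastomeres, 4 of 7 members were 2-fold higher at the 4-cell stage, beside 16.8% of all genes, and 1 at the 8-cell stage, beside 12.4%. With each blastomere left out in turn, the members at least 2-fold higher at the 4-cell stage numbered 4 to 6, and those at the 8-cell stage 2 each time. The median pair correlation of the 4-cell stage was -0.00282 with Pearson's r of log2(FPKM + 1) and 0.122 with 1 member per family. That of the 8-cell stage was 0.201 with Pearson's r, 0.107 after each blastomere was rescaled to the same sum, and -0.0138 over members in at least 50% of the blastomeres. Without the most abundant member, the rank correlation of the sum with the FPKM denominator was -0.00696 at the 4-cell stage, and with genes above 1 it was 0.449 at the 8-cell stage. Of 130 alternative shares of blastomeres for single members 98 stayed within the interval of the share above 0, and of 72 alternative stage ratios 50 stayed within the range given by leaving out 1 blastomere. Detection at 10 or more fragments, leaving out each blastomere and the minimum of 5500 genes were chosen after seeing the data. The medians of 8 members were 0 at a stage, so no ratio of medians was made for them. No paired analysis was possible because no column could be tied by its name to a numbered sample of the labels, and the stages come from different embryos. Usp17lc and the 8-cell levels of Zscan4c rest on few fragments, and unique alignment limits Zscan4f and Zscan4c.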

Other observations

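Genes known to switch the burst on or off were listed beside the members. Of 8 activators, Dppa2 and Dppa4, which open the Dux locus in embryonic stem cells, were present in every blastomere of both stages, with means of 598 and 524 FPKM at the 4-cell and 491 and 405 FPKM at the 8-cell stage. Smarca5 had means of 73.9 and 66.8 FPKM, Nr5a2 of 52.3 and 38.7 FPKM, and Nelfa of 30.96 and 45.3 FPKM. Duxf3, the Dux factor itself, was not listed at either stage. Only reads that align to 1 place were counted, and how much of Duxf3 such reads can place was not measured. No absence of its transcript is read from this. Of 6 activators tested 1 was at least 2-fold higher at the 4-cell stage, Gata2, above 0 in 2 blastomeres at each stage, which is named here after its values were seen. Over all genes tested that share was 21.2%, and over sparse genes 35.5%.

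Of 15 repressors 1 was at least 2-fold different between the stages, Zfp42 with a mean of 41.8 FPKM at the 4-cell and 91.6 FPKM at the 8-cell stage. Over all genes tested 21.2% were at least 2-fold higher at the 4-cell stage and 15.5% at the 8-cell stage. Ncl had means of 129 and 141 FPKM, Trim28, a corepressor of retroviruses, of 66.4 and 127 FPKM, Pcgf6 of 96.99 and 56.4 FPKM, and Chaf1b of 50.4 and 45.2 FPKM.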
